A study of Homo sapiens with 9 samples.

Results

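The 9 enzymes described here make serine from glucose carbon and pass its side-chain carbon to folate. They were chosen by name, with earlier results of these data known. PHGDH, PSAT1, PSPH, SHMT1 and MTHFD1 act in the cytosol, and SHMT2, MTHFD2, MTHFD1L and ALDH1L2 act in mitochondria. All 9 were among the 26485 genes of the deposited tables. RNA was sequenced from MDA-MB-231, a human breast cancer cell line of the triple-negative subtype. The paper names DMEM or RPMI medium, with fetal bovine serum, for its cell lines. There were 3 libraries from cells stably expressing a nonspecific (NS) shRNA, 3 from cells with ASAH1 shRNA #1 and 3 from cells with ASAH1 shRNA #2. ASAH1 encodes acid ceramidase, the lysosomal enzyme that splits ceramide. All cells carried an shRNA, the line was a single one, and each ASAH1 hairpin is a separate stable line, so hairpin and line cannot be told apart.

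Serine is built from the glycolytic intermediate 3-phosphoglycerate by PHGDH, PSAT1 and PSPH in turn. Serine hydroxymethyltransferases (SHMT1 in the cytosol, SHMT2 in mitochondria) then split serine into glycine and a carbon unit carried on tetrahydrofolate. In mitochondria MTHFD2 oxidizes this unit, MTHFD1L releases it as formate and ALDH1L2 burns it to carbon dioxide with production of NADPH. In the cytosol MTHFD1 captures the formate and returns the unit for purine, thymidylate and methyl synthesis. In many dividing cells the mitochondrial arm supplies most of the formate, and MTHFD2 is known for its high expression in tumors. MDA-MB-231 is known as a breast cancer line with little PHGDH.

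Short stretches of the start regions are shown first, for members in which motifs of known regulators of these genes were found. Promoter sequences (250 bases before to 50 bases after the transcription start, RefSeq, GRCh38.p14) were found for 6 of the 9 members. They were PHGDH, PSAT1, SHMT1, MTHFD1, MTHFD2 and MTHFD1L, and the names not matched were PSPH, SHMT2 and ALDH1L2. Searched on both strands were the amino acid response core TGATGNAA (bound by factors of the ATF4 and C/EBP families), the E-box CACGTG (bound by MYC and related factors), the antioxidant response core TGACNNNGC (bound by NFE2L2 with small MAF proteins) and the GC box GGGCGG (bound by SP factors). Each line gives a stretch of the gene's own strand with the matched letters in capitals, at chr6:150866346-150866375, chr14:64388313-64388352 and chr2:74198611-74198640 (all on the plus strand).
MTHFD1L, amino acid response core: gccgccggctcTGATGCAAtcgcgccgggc
MTHFD1, E-box: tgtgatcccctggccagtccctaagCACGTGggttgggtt
MTHFD2, antioxidant response core on the opposite strand: ttccctcccgGCGCAGTCAccggcgcggtc
The amino acid response core began at base 25 after the start of MTHFD1L and was in 1 of the 6 member promoters, against 3.75% of 27305 promoters and 2.81% of the 16199 whose genes are in the deposited tables. The E-box lay 15 bases before the start of MTHFD1 and 1 base before the start of MTHFD1L, and 7.28% of all promoters and 8.33% of those in the tables held one. The antioxidant response core of MTHFD2 began at base 7 after its start, and 13.5% and 14.2% of these promoters held one. The GC box was in 3 of the 6 (PSAT1, SHMT1 and MTHFD1L), against 43.8% of all promoters and 55.0% of those in the tables. These matches describe letters in a short window and no binding was measured.

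The deposited values are normalized counts, that is reads on a gene divided by a size factor of the library, set separately for each hairpin together with the NS shRNA libraries. Reads on genes came to between 23806003 and 49659106 per library. A gene was called higher or lower where limma on log2(normalized count + 1) gave a Benjamini-Hochberg adjusted p below 0.05 over all genes with a mean of at least 10. ASAH1 itself fell by 1.76 on the log2 scale with shRNA #1 (adjusted p = 9.49e-09, limma) and changed by -2.63 with shRNA #2 (adjusted p = 5.42e-10, limma). The markers of the line VIM, CD44, AXL, CAV1 and EGFR had at least 2667 reads in every library. ESR1, PGR and FOXA1 had at most 6 reads in any library, while ERBB2 and GATA3, listed as low or absent, had at least 1530 and 401. Of the markers of other cells, PTPRC, CDH5 and ALB had at most 8 reads, and the endothelial marker PECAM1 had 39 to 102. In RNA from whole cultures, fewer cells of a kind and less RNA per cell cannot be told apart.

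With shRNA #1, 7 of the 9 enzymes rose, SHMT1 fell and ALDH1L2 was not called. Over all 14341 genes tested, 32.8% were called higher and 33.3% lower (66.1% in either direction), and the median log2 fold change was 0.64 for the members against 0.0013 for all genes. Since the members were chosen with earlier results of these data known, the medians are a description and were not tested. With shRNA #2, 8 of the 9 passed the filter: PSAT1, PSPH and MTHFD2 rose, PHGDH and SHMT1 fell, and MTHFD1, SHMT2 and MTHFD1L were not called. Over 14250 genes the background was 33.5% higher and 33.4% lower (66.9% in either direction), close to the members' shares, and the median log2 fold change was 0.050 for the members and 0.013 for all genes. The groups did not overlap for 8 of the 9 members with shRNA #1 (69.2% of genes tested) and for 6 of the 9 with shRNA #2 (70.0%). These 6 include ALDH1L2, which was below the filter that the genes of the 70.0% had passed. Set directly against shRNA #1 by edgeR (quasi-likelihood test over the reads recovered for all 9 libraries), shRNA #2 gave more PSAT1 and less PHGDH, MTHFD1, SHMT2, MTHFD1L and ALDH1L2. Of 14714 genes, 31.1% were higher and 32.1% lower in that comparison (63.3% in either direction). Called higher with both hairpins were PSAT1, PSPH and MTHFD2 (20.0% of 14075 genes tested in both), called lower with both was SHMT1 (20.5%), and called in opposite directions was PHGDH (7.96%). The comparisons with NS shRNA share the 3 control libraries.

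**Figure D1:**
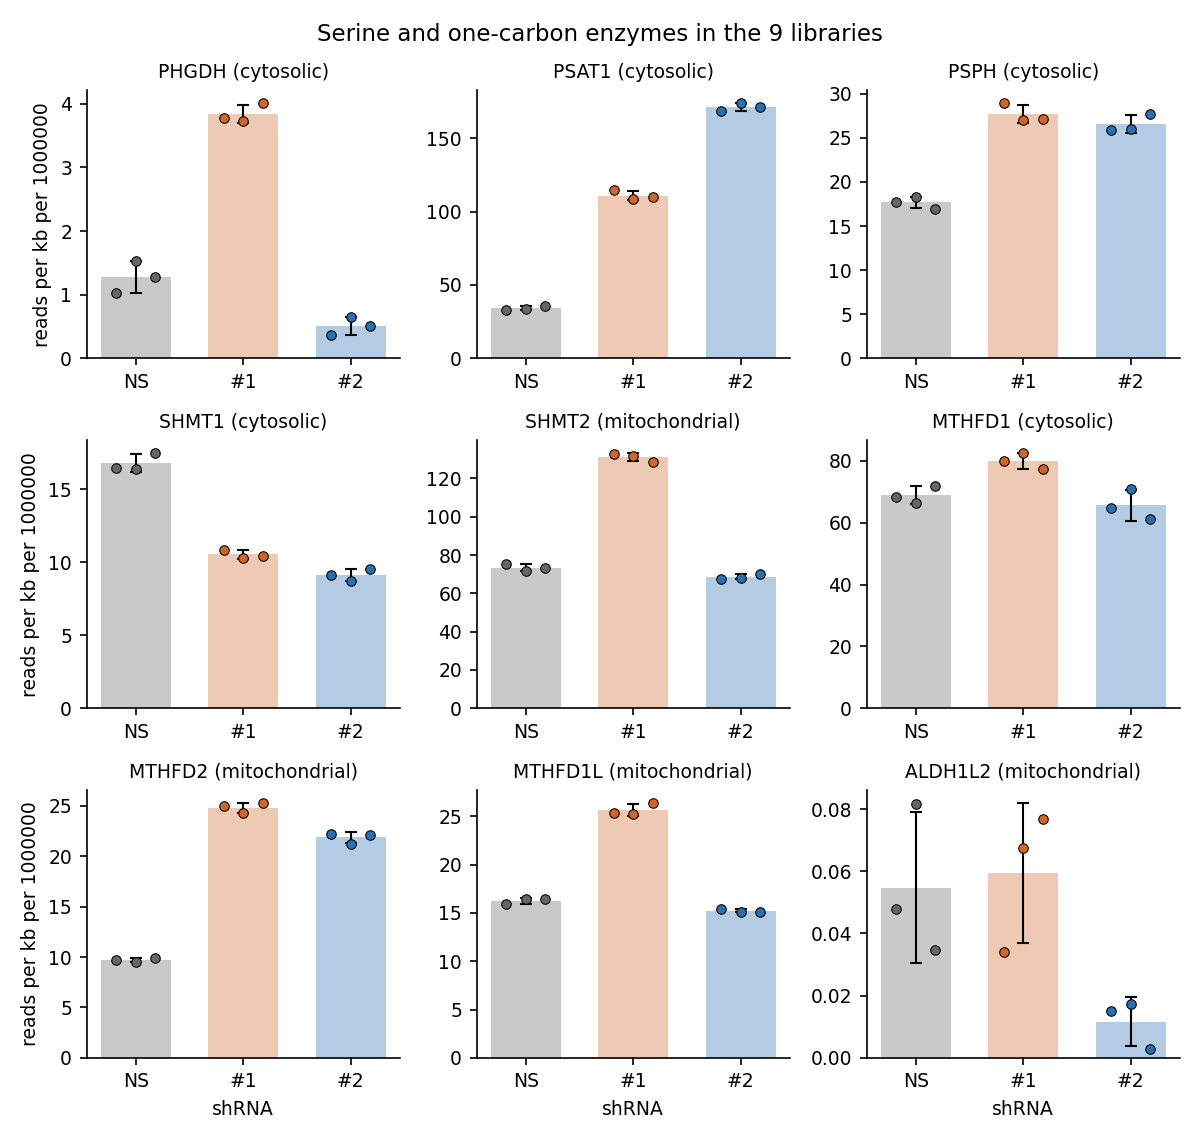
Reads per kb of transcript and per 1000000 reads on genes (y axes from 0, each with its own scale) for the 9 enzymes by shRNA (x axis). Bars are means, error bars the SD (n = 3) and points single libraries. PHGDH is highest with shRNA #1 and lowest with shRNA #2, PSAT1 is highest with shRNA #2, and SHMT2 and MTHFD1L lie well above the controls with shRNA #1 and slightly below them with shRNA #2 on this scale.

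PHGDH, which oxidizes 3-phosphoglycerate in the committed step, moved in opposite directions with the hairpins. Its normalized counts were 61.7, 92.2 and 76.6 with NS shRNA and 225, 222 and 239 with shRNA #1. In the table of shRNA #2 the NS shRNA libraries held 66.6, 100.1 and 82.6 and the knockdown libraries 25.9, 45.7 and 36.5. All shRNA #1 libraries lay above, and all shRNA #2 libraries below, the controls. The log2 fold change was 1.58 (SE 0.149, adjusted p = 1.25e-05) with shRNA #1 and -1.20 (SE 0.241, adjusted p = 0.0012) with shRNA #2 by limma. Between the hairpins it was lower by 2.77 with shRNA #2 (SE 0.192, adjusted p = 2.80e-07, edgeR), a level 0.146 times that of shRNA #1. A gene higher with shRNA #1, lower with shRNA #2 and different between them was found in 535 of 14074 cases (3.80%). The level of PHGDH was low throughout: its reads summed to 236 over the 3 NS shRNA libraries, 694 with shRNA #1 and 118 with shRNA #2.

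PSAT1, the aminotransferase that follows, had the largest fitted increase of the members in both comparisons, although with shRNA #1 PHGDH (1.72) passed it (1.67 on the log2 scale) on leaving out NS shRNA replicate 2. Its normalized counts were 2375, 2377 and 2527 with NS shRNA and 8042, 7639 and 7744 with shRNA #1. In the table of shRNA #2 they were 2562, 2580 and 2725 with NS shRNA and 14265, 14578 and 14524 with the hairpin. The groups lay far apart relative to their spread. The fold change was 3.22 with shRNA #1 (log2 1.69, SE 0.048, adjusted p = 9.67e-09) and 5.51 with shRNA #2 (log2 2.46, SE 0.051, adjusted p = 5.03e-10) by limma. PSAT1 was 1.70 times as high with shRNA #2 as with shRNA #1 (adjusted p = 4.81e-08, edgeR).

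PSPH, the phosphatase that releases serine, rose to a similar extent with both hairpins. Its normalized counts were 1134, 1169 and 1078 with NS shRNA and 1817, 1707 and 1713 with shRNA #1. They were 1224, 1269 and 1163 with NS shRNA and 1967, 1952 and 2107 with shRNA #2 in the other table. Every knockdown library lay above every control. The fold change was 1.55 with shRNA #1 (adjusted p = 9.50e-06, limma) and 1.65 with shRNA #2 (adjusted p = 4.06e-06, limma). The log2 difference between the hairpins, 0.085 (SE 0.056), did not pass the test (adjusted p = 0.205, edgeR). Thus with shRNA #1 all 3 serine synthesis enzymes rose, and with shRNA #2 the last 2 rose while the enzyme that opens the pathway fell.

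Among the serine hydroxymethyltransferases, the cytosolic SHMT1 was the member that fell with both hairpins. Its normalized counts were 1349, 1339 and 1423 with NS shRNA and 873, 833 and 844 with shRNA #1. With shRNA #2 they were 887, 840 and 925, against 1456, 1453 and 1534 in the controls of that table. No knockdown library reached a control. SHMT1 stood at 0.621 times the control level with shRNA #1 (log2 -0.69, adjusted p = 5.11e-06, limma) and at 0.597 times with shRNA #2 (log2 -0.74, adjusted p = 4.15e-06, limma). The hairpins differed by -0.060 on the log2 scale (SE 0.056, adjusted p = 0.366, edgeR).

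The mitochondrial SHMT2 rose with shRNA #1 and was not called with shRNA #2. Its normalized counts were 5257, 5012 and 5089 with NS shRNA and 9123, 9089 and 8876 with shRNA #1. With shRNA #2 they were 5603, 5596 and 5828, which overlapped the control values of 5672, 5440 and 5487. The fold change was 1.76 with shRNA #1 (log2 0.82, SE 0.043, adjusted p = 3.15e-07, limma). With shRNA #2 the log2 fold change was 0.037 with a 95% confidence interval of -0.076 to 0.149 (adjusted p = 0.542, limma). Scaled to total reads on genes instead of size factors, its shRNA #2 libraries all lay below the controls, at 67.6, 68.2 and 70.1 against 75.1, 71.9 and 73.3 reads per kb of transcript and per 1000000 reads. The hairpins differed by -0.79 (SE 0.042, adjusted p = 3.63e-08, edgeR), so the difference itself passed the test.

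MTHFD1L, the mitochondrial formate-releasing synthetase, had the same pattern as SHMT2. Its normalized counts rose from 1776, 1836 and 1823 to 2783, 2782 and 2913 with shRNA #1. With shRNA #2 they were 2040, 1985 and 2005 against 1916, 1993 and 1965, and these groups overlapped. The fold change with shRNA #1 was 1.56 (log2 0.64, SE 0.048, adjusted p = 2.91e-06, limma). With shRNA #2 the log2 fold change was 0.038 with a 95% confidence interval of -0.085 to 0.161 (adjusted p = 0.566, limma). Scaled to total reads, its shRNA #2 libraries likewise lay below the controls, at 15.4, 15.1 and 15.1 against 15.9, 16.5 and 16.4 reads per kb and per 1000000 reads. The hairpins differed by -0.61 (SE 0.046, adjusted p = 5.06e-07, edgeR).

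MTHFD2, the mitochondrial dehydrogenase and cyclohydrolase, rose by nearly the same amount with each hairpin. Its normalized counts went from 1389, 1353 and 1402 to 3494, 3414 and 3553 with shRNA #1. With shRNA #2 they went from 1499, 1469 and 1511 to 3760, 3560 and 3755. All knockdown libraries lay well above all controls. The fold changes were 2.52 (log2 1.34, SE 0.047, adjusted p = 3.19e-08) and 2.47 (log2 1.31, SE 0.056, adjusted p = 3.27e-08) by limma. The log2 difference between the hairpins was -0.037 (SE 0.046, adjusted p = 0.497, edgeR). MTHFD2 was the only mitochondrial member called higher in both comparisons.

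MTHFD1, which carries out these folate steps in the cytosol, moved little. Its normalized counts were 6988, 6776 and 7309 with NS shRNA and 8031, 8324 and 7817 with shRNA #1, and these groups did not overlap. With shRNA #2 they were 7841, 8526 and 7432 against 7540, 7356 and 7880, which did overlap. The fold change was 1.15 with shRNA #1 (log2 0.20, SE 0.048, adjusted p = 0.00471, limma). With shRNA #2 the log2 fold change was 0.062 with a 95% confidence interval of -0.075 to 0.198 (adjusted p = 0.395, limma). The difference between the hairpins, -0.14 (SE 0.056), was called by edgeR at an adjusted p of 0.0426, but this call was lost on leaving out any one of 6 of the 9 libraries: NS shRNA replicates 1 and 2, shRNA #1 replicates 1 and 2, and shRNA #2 replicates 1 and 3. The adjusted p then ran up to 0.175.

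ALDH1L2, the mitochondrial formyltetrahydrofolate dehydrogenase, was barely present. It had 11, 20 and 9 reads with NS shRNA, 6, 20 and 19 with shRNA #1, and 4, 5 and 1 with shRNA #2. The first 2 groups overlapped and the shRNA #2 libraries all lay below them. With shRNA #1 the log2 fold change was 0.10 with a 95% confidence interval of -0.84 to 1.04 (adjusted p = 0.844, limma). With shRNA #2 the gene fell below the filter on low values. Without that filter its log2 fold change was -1.92 (SE 0.527, adjusted p = 0.00958, limma). Between the hairpins it was -2.31 (SE 0.570, adjusted p = 0.00399, edgeR). At this depth a handful of reads sets these values.

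**Figure D2:**
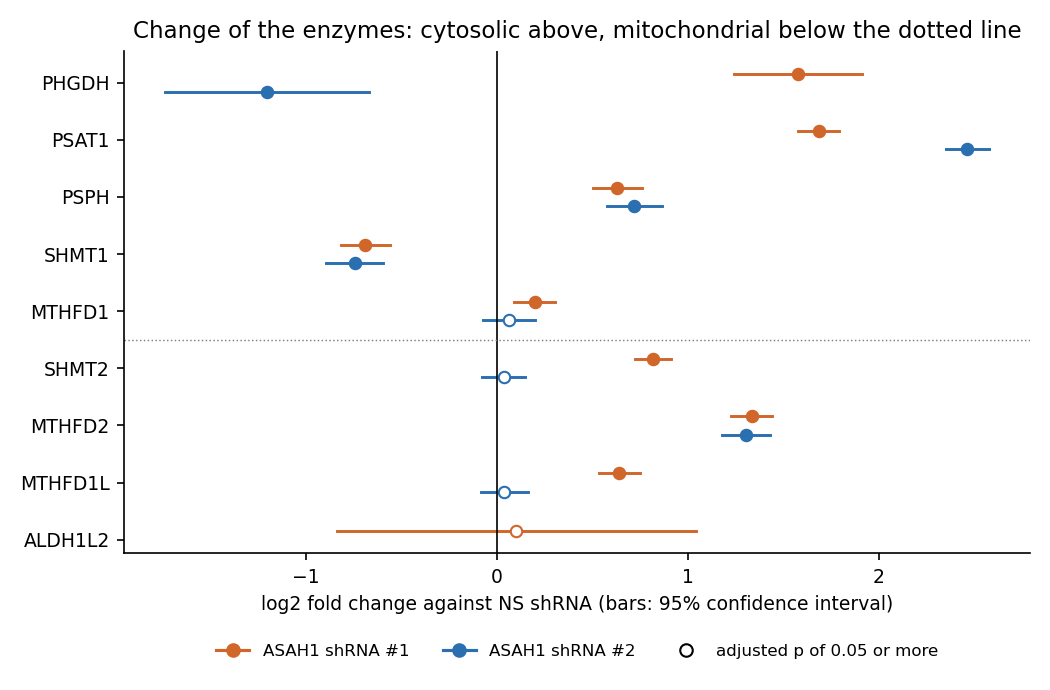
Log2 fold change against NS shRNA (x axis) for each enzyme (y axis), with bars for the 95% confidence interval, shRNA #1 in orange and shRNA #2 in blue. Open points have an adjusted p of 0.05 or more, and ALDH1L2 has no blue point because it was below the filter. PHGDH lies at 1.58 and -1.20, MTHFD2 at 1.34 and 1.31, and SHMT2 and MTHFD1L lie at 0.82 and 0.64 with shRNA #1 and at 0.037 and 0.038 with shRNA #2.

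The median changes of the cytosolic and the mitochondrial enzymes lay close together with each hairpin, and their contrast was not tested. With shRNA #1, 4 of 5 cytosolic members rose and 1 fell, with a median log2 fold change of 0.63. Of the 4 mitochondrial members 3 rose, with a median of 0.73. Over all genes 32.8% were called higher and 33.3% lower. With shRNA #2, 2 cytosolic members rose and 2 fell (median 0.062), and 1 of the 3 mitochondrial members tested rose (median 0.038). These shRNA #2 counts were near the shares over all genes, 33.5% higher and 33.4% lower. The cytosolic members range over different reactions, so SHMT2, MTHFD2 and MTHFD1L were also set against their cytosolic counterparts within the same library, where the size factor cancels. No such ratio was formed for ALDH1L2.

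The ratio of SHMT2 to SHMT1 reads rose with both hairpins. It was 3.90, 3.74 and 3.58 with NS shRNA, 10.4, 10.9 and 10.5 with shRNA #1, and 6.31, 6.66 and 6.30 with shRNA #2. The groups did not overlap. The ratio was 2.84 times the control with shRNA #1, where SHMT2 rose and SHMT1 fell, and 1.72 times with shRNA #2, where SHMT1 fell and SHMT2 was not called. The ratio of MTHFD2 to MTHFD1 reads was 0.199, 0.200 and 0.192 with NS shRNA, 0.435, 0.410 and 0.455 with shRNA #1, and 0.480, 0.418 and 0.505 with shRNA #2. It was 2.20 and 2.37 times the control, with the values of the hairpins overlapping each other. The ratio of MTHFD1L to MTHFD1 was 0.254, 0.271 and 0.249 with NS shRNA and 0.346, 0.334 and 0.373 with shRNA #1, or 1.36 times the control. With shRNA #2 it was 0.260, 0.233 and 0.270, which overlapped the control. In the two-sided exact permutation test over 3 against 3 libraries the smallest possible p is 0.1, which cannot pass 0.05. That p was reached in 7 of the 9 ratio comparisons (0.129 after Benjamini-Hochberg adjustment over the 9). It was not reached for MTHFD1L to MTHFD1 with shRNA #2 (exact p = 0.8) or MTHFD2 to MTHFD1 between the hairpins (exact p = 0.3). An exact p of 0.1 means only that the groups did not overlap. Against NS shRNA this held for 69.2% of single genes with shRNA #1 and 70.0% with shRNA #2. The share for other pairs of genes was not determined.

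As a description, the reads per kb of SHMT2, MTHFD2, MTHFD1L and ALDH1L2 made up 53.7% ± 0.90 (SD, n = 3) of the total over these and SHMT1 and MTHFD1 with NS shRNA. The mitochondrial share was 66.7% ± 0.56 (SD, n = 3) with shRNA #1 and 58.6% ± 1.80 (SD, n = 3) with shRNA #2. The lowest knockdown library, at 56.7%, lay above the highest control at 54.3%.

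**Figure D3:**
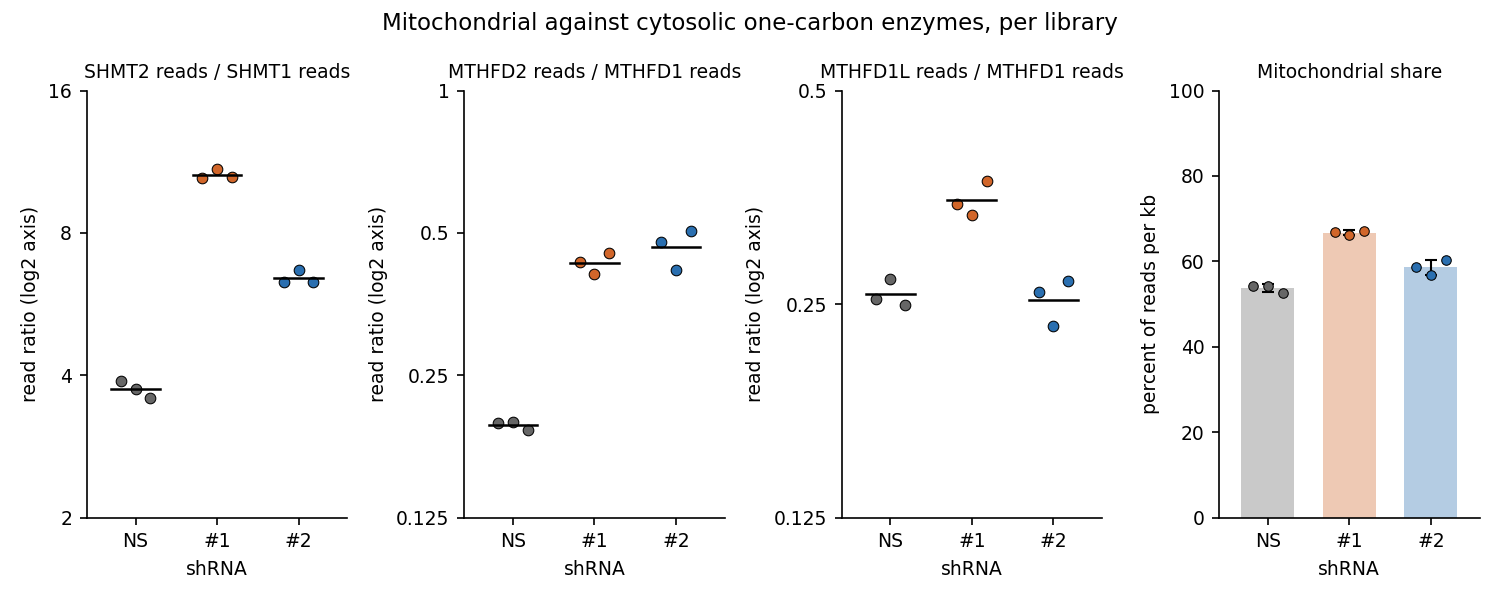
Reads of a mitochondrial enzyme divided by reads of its cytosolic counterpart in each library (3 panels with a log2 y axis, line at the geometric mean) and the mitochondrial share of reads per kb (bar mean, error bar SD, n = 3), by shRNA. SHMT2 to SHMT1 rises from 3.58 to 3.90 in the controls to 10.4 to 10.9 with shRNA #1, and MTHFD1L to MTHFD1 is above the controls only with shRNA #1.

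The order of the enzymes by level per transcript length changed with the hairpins. Given as reads per kb of transcript and per 1000000 reads on genes, with the length of the GENCODE v44 canonical transcript, the NS shRNA libraries had SHMT2 at 73.4 ± 1.63 and MTHFD1 at 68.9 ± 2.80 (SD, n = 3), which overlapped. PSAT1 followed at 34.0 ± 1.34 (SD, n = 3). PSPH at 17.7 overlapped SHMT1 at 16.8, and SHMT1 overlapped MTHFD1L at 16.2. MTHFD2 at 9.71, PHGDH at 1.275 and ALDH1L2 at 0.055 closed the order with no overlap between neighbours. With shRNA #1 the order opened with SHMT2 at 131, PSAT1 at 111 and MTHFD1 at 80.02, without overlap. MTHFD1L at 25.7 and MTHFD2 at 24.8 overlapped, and SHMT1 at 10.5 now lay below both. With shRNA #2 PSAT1 stood highest at 171 ± 2.76 (SD, n = 3), above SHMT2 at 68.6 and MTHFD1 at 65.6, which overlapped. The level of PSAT1 was 26.7 times that of PHGDH with NS shRNA, 28.9 times with shRNA #1 and 339 times with shRNA #2. These levels depend on the transcript length used, and the transcripts present in these cells were not resolved.

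The genes lie on different chromosomes, apart from SHMT2 and ALDH1L2, which are both on chromosome 12 (hg38, GENCODE v44). PHGDH spans chromosome 1 from 119648411 to 119744218 and its canonical transcript has 12 exons. PSAT1 spans chromosome 9 from 78297125 to 78330093 with 9 exons, and MTHFD2 spans chromosome 2 from 74186172 to 74217565 with 8 exons. Reads on PSAT1, PSPH, SHMT1, MTHFD1 and MTHFD2 could in part be shared with pseudogenes of those names. Of these only MTHFD2P1 was a row of the tables, with at most 1 read in a library. All gene overlaps of the members were with the opposite strand, apart from the microRNA gene MIR6778 within SHMT1, and the counting used strand.

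The other folate genes went both ways. With shRNA #1, 4 of 15 tested rose and 6 fell, near the shares over all genes given above, and 5 were not called. With shRNA #2, 6 of 16 rose (33.5% of all genes), 7 fell (33.4%) and 3 were not called. The median log2 fold change was 0.12 and -0.23. Higher in both comparisons (20.0% of all genes) were SLC25A32, the mitochondrial folate carrier, and MTRR, the methionine synthase reductase. So were GART and ATIC, the purine synthesis enzymes that use the formyl unit. GART rose 2.01-fold (adjusted p = 1.43e-07) and 1.85-fold (adjusted p = 2.04e-07) by limma, and ATIC 1.46-fold (adjusted p = 1.07e-05) and 1.38-fold (adjusted p = 2.26e-05). SLC25A32 rose 1.72-fold and 2.24-fold (adjusted p = 1.23e-06 and 7.34e-08), but 69.7% of its annotated exon bases are shared with another gene on the same strand. Among those lower in both (20.5% of all genes) were ALDH1L1, TYMS, GGH and MTFMT. ALDH1L1, the cytosolic counterpart of ALDH1L2, fell to 0.390 and 0.188 times the control (adjusted p = 3.66e-05 and 4.30e-07, limma). TYMS, the thymidylate synthase, fell to 0.845 times the control with shRNA #1 and to 0.776 times with shRNA #2 (adjusted p = 0.00139 and 9.19e-05, limma). SLC19A1, the plasma membrane folate carrier, had at most 3 reads in every library.

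In the glycine cleavage system, which feeds the same mitochondrial folate pool, AMT fell in both comparisons, to 0.588 and 0.731 times the control (adjusted p = 6.70e-05 and 0.00167, limma). Reads of AMT are uncertain, since 62.6% of its annotated exon bases are shared with another gene on its strand. Counts were 0 higher, 1 lower and 2 not called of 3 with shRNA #1, and 1 of each with shRNA #2. Over all genes 32.8% were higher and 33.3% lower with shRNA #1, and 33.5% and 33.4% with shRNA #2. Lower in both comparisons were 20.5% of all genes tested in both. GLDC, the glycine decarboxylase, was under the filter with at most 4 reads in a library.

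Among genes of serine and glycine transport and use, 6 carriers of the 15 genes tested rose in both comparisons (20.0% of all genes did). With shRNA #1, 8 of 15 rose (32.8% of all genes), 4 fell (33.3%) and 3 were not called (median log2 fold change 0.29). With shRNA #2, 7 rose (33.5% of all genes), 4 fell (33.4%) and 4 were not called (median 0.24). The plasma membrane carriers of serine and other neutral amino acids SLC1A4, SLC1A5, SLC38A1 and SLC38A2 rose in both, as did the glycine carriers SLC6A9 and SLC25A38. SLC1A5 rose 2.71-fold (adjusted p = 8.32e-09) and 2.72-fold (adjusted p = 7.11e-09) by limma. SLC38A2 went from 20335, 22249 and 24238 to 28060, 27855 and 25256 with shRNA #1, a 1.22-fold rise (adjusted p = 0.00503). With shRNA #2 it went from 21942, 24151 and 26133 to 81336, 86873 and 78322, a 3.42-fold rise (adjusted p = 1.94e-08). Of the mitochondrial serine carriers, SFXN3 fell to 0.700 and 0.340 times the control (adjusted p = 5.74e-05 and 3.51e-08, limma). SFXN1 moved in opposite directions, as did 7.96% of all genes, to 0.750 and 1.18 times the control (adjusted p = 3.79e-04 and 0.00683, limma). SPTLC1 and SPTLC2, subunits of the palmitoyltransferase that draws on serine for ceramide, fell in both, SPTLC2 to 0.587 and 0.581 times the control. With SFXN3 they made 3 of the 15 genes lower in both comparisons, near the 20.5% of all genes. SPTLC3, an alternative subunit, rose 1.29-fold with shRNA #1 (adjusted p = 7.37e-04, limma) and was at 1.08 times the control with shRNA #2 (adjusted p = 0.195, limma). SDS was at 0 in every library and CBS had at most 3 reads.

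**Figure D4:**
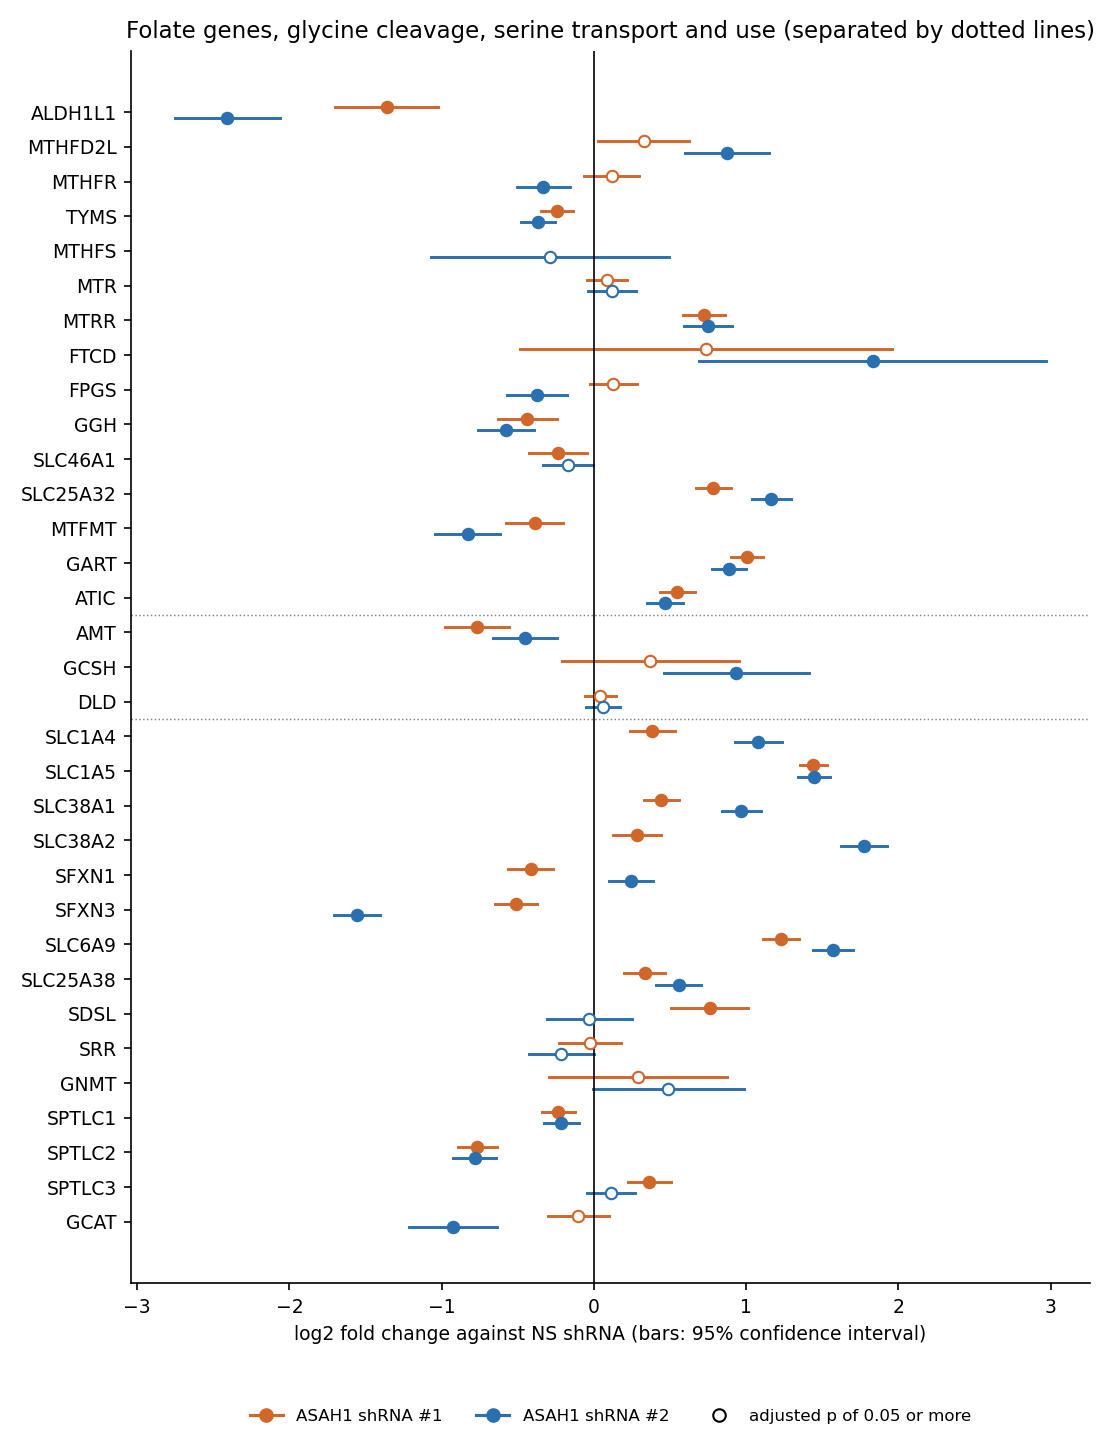
Log2 fold change against NS shRNA (x axis, bars 95% confidence interval) for other folate genes, the glycine cleavage genes and the genes of serine transport and use (y axis), with shRNA #1 in orange, shRNA #2 in blue and open points at an adjusted p of 0.05 or more. The carriers SLC1A5 and SLC6A9 lie right of 1 in both comparisons, and ALDH1L1 lies left of -1 in both.

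The factors known to act on serine and folate genes were higher with both hairpins. ATF4, the amino acid stress factor, had normalized counts of 4926, 5105 and 4685 with NS shRNA and 7177, 7372 and 7817 with shRNA #1. With shRNA #2 it went from 5316, 5542 and 5051 to 9351, 8774 and 9884. These are fold changes of 1.52 (adjusted p = 7.13e-06) and 1.76 (adjusted p = 1.20e-06) by limma. NFE2L2 rose 1.15-fold (adjusted p = 0.006) and 1.19-fold (adjusted p = 0.00385), but the latter call was lost under upper quartile rescaling (log2 0.16, adjusted p = 0.0892). MYC rose 2.65-fold (adjusted p = 1.16e-08) with shRNA #1 and 1.25-fold (adjusted p = 5.00e-04) with shRNA #2, and was lower by 1.09 on the log2 scale with shRNA #2 than with shRNA #1. The mRNA levels of these factors were measured, not their activity, and their part in the members' changes was not tested.

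Of 10 markers of proliferation, 7 fell, 0 rose and 3 were not called with shRNA #1 and likewise with shRNA #2, where 33.3% and 33.4% of all genes were lower. TOP2A, CCNB1, CDK1, PCNA and MCM6 fell in both, as did 20.5% of all genes. The summed normalized count of the 10 was 78850 to 81126 with NS shRNA and 60415 to 61372 with shRNA #1, and 85083 to 87470 with NS shRNA and 63857 to 64575 with shRNA #2. Their part in the changes of the folate genes was not tested.

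The genes most like PHGDH and MTHFD2 were sought among 11549 genes outside these lists with a mean of at least 100, by the distance between their pairs of log2 fold changes. Nearest to PHGDH were HIST1H3B (1.38 with shRNA #1 and -1.10 with shRNA #2, distance 0.226) and NEURL3 (1.59 and -0.94, distance 0.263). The change of HIST1H3B with shRNA #1 was not called (adjusted p = 0.213, limma) and was 0.034 on leaving out shRNA #1 replicate 1. Its call with shRNA #2 was lost on leaving out NS shRNA replicate 2 (-0.74) or shRNA #2 replicate 3 (-0.80). Nearest to MTHFD2 were TET3 (1.31 and 1.29, distance 0.031), ABL2 (1.36 and 1.26) and KCNQ5 (1.38 and 1.23).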

How the data were processed

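Poly(A) RNA of 9 MDA-MB-231 libraries was sequenced with strand-specific, single-end reads. The authors trimmed with Trimmomatic (version 0.36), aligned to hg38 with STAR (version 2.7.1a), counted on UCSC genes with htseq-count (reverse strand) and normalized with DESeq2 (version 1.28). A second paragraph of the methods names RSEM and edgeR instead. The deposited values are a signal, read counts scaled by a DESeq2 size factor per library, in 2 tables, each with 1 ASAH1 shRNA and the same NS shRNA libraries. All values were whole reads within a tolerance of 0.01 (100% of values), so reads were recovered. Deposited mean signals, log2 fold changes with standard errors, Wald scores and p-values of the authors were not used. There were 0 per-sample columns without a sample. 28 symbols turned into dates in a table were restored from the other. Replicates are stated to be biological, with no details of the cultures.

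Members and lists were chosen with earlier results of these data known, as were the 3 motifs beside the amino acid response core. Limma (3.58.1, trend, pseudocount 1, mean of at least 10) was fitted per table, and edgeR (4.0.16, TMM, filterByExpr) on the recovered reads of all 9 libraries gave the comparison of hairpins, in R 4.3.3. Threshold was 0.05, two-sided, Benjamini-Hochberg adjusted over all genes tested. Fold changes are on the log2(value + 1) scale, which understates changes of low genes. The fits were tested on simulated data. Lengths, exons and positions are from GENCODE v44 (hg38), which is not the annotation the authors counted on. Figures were drawn with matplotlib 3.10.9. Alternatives were pseudocounts of 0.1 and 5, other filters, limma without a trend, upper quartile rescaling, edgeR, DESeq2 (1.42.0), 1 fit of all libraries, the replicate block and each library left out. Named genes are the members, ASAH1, the list genes called the same way in both comparisons or with at most 3 reads, 3 known factors and, for PHGDH and MTHFD2, the 3 nearest genes. SFXN1, SPTLC3, GLDC and the proliferation genes fall outside this rule and were named after their values were seen. Items that these rules also cover are not reported here. Deviations of same-numbered libraries from their group means correlated at -0.30 to -0.088 between NS shRNA and the hairpins. Between the hairpins these correlations were weakly positive, at 0.053 to 0.20. The numbers were not taken as pairs.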

Additional observations from a re-analysis of the deposited data

Results flagged for a closer look

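The effects of the hairpins differed by the test of the difference itself (shRNA #2 against shRNA #1, edgeR's quasi-likelihood test, log2 scale) for 6 of the 9 enzymes. The difference was -2.77 for PHGDH, where the comparisons with NS shRNA have opposite signs, and 0.77 for PSAT1, where both are higher. It was -0.79 for SHMT2 and -0.61 for MTHFD1L, which were higher with shRNA #1 and not called with shRNA #2. It was -0.14 for MTHFD1 and -2.31 for ALDH1L2, which has at most 20 reads in a library. The difference for MTHFD1 was lost when any one of 6 libraries was left out. Of all 14714 genes, 63.3% differed between the hairpins in either direction.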

How the results depend on the processing

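Of 405 values of the members' 26 results under the alternatives, 389 kept their direction and their side of the threshold. Upper quartile rescaling turned MTHFD1, SHMT2 and MTHFD1L with shRNA #2 to -0.032, -0.057 and -0.055, none of them called under either scaling, and it took NFE2L2 with shRNA #2 out of the calls (0.16, adjusted p = 0.0892). ALDH1L2 with shRNA #1 ran from -0.16 to 0.44 when single libraries were left out. The MTHFD1 difference between the hairpins was lost without the filter, with DESeq2, with the 6 knockdown libraries alone and with the replicate block (-0.14, adjusted p = 0.0733), and on leaving out single libraries. Its adjusted p over all alternatives ran from 0.00763 to 0.175. With the 6 knockdown libraries alone 3 members rather than 5 were lower. There MTHFD1 was not called (adjusted p = 0.0706, edgeR) and ALDH1L2 was not among the genes tested. The replicate block ended no other call of a member. Reads not divided by length gave a mitochondrial share of 49.8% with NS shRNA, 63.3% with shRNA #1 and 56.4% with shRNA #2. Leaving out single libraries, the log2 change of MTHFD1L to MTHFD1 with shRNA #2 ran from -0.068 to 0.038, and the NFE2L2 difference between the hairpins from -0.00091 to 0.069. HIST1H3B with shRNA #2 lost its call in limma without the trend (-1.10) and in 1 fit of all libraries (-1.10). The cause of these changes was not tested. Depth limits ALDH1L2 and, less so, PHGDH, and these 2 had the widest intervals of the members. All intervals measure the spread among 3 libraries a group, not the spread between separate lines.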
